A study of Arabidopsis thaliana with 36 samples.

Results

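Transcripts of 6 Arabidopsis thaliana genes that build and degrade proline were followed in roots of 7-day-old Col-0 seedlings after a change of KNO3 supply. The genes were taken by identifier, 6 of the 32833 in the count tables: the proline dehydrogenase gene ERD5 (AT3G30775), its paralogue AT5G38710, P5CDH (AT5G62530), P5CS1 (AT2G39800), P5CS2 (AT3G55610) and P5CR (AT5G14800). ERD5 was chosen by its counts over the 9 groups, which were already known, and the other 5 genes for their place in its pathway. ERD5 is therefore described with levels and differences and without a test, while the other 5 were tested. Seedlings were raised on mesh over 1 mM KNO3, and 2 h after dawn the mesh was carried to fresh plates holding 10 mM or 1 mM KNO3. Roots were taken 15, 45, 90 and 180 min after the move. At 0 min the mesh was only picked up and returned to its own 1 mM plate. Each of the 9 groups has 4 libraries, and every library pooled 2 plates. The libraries of a group are numbered 1 to 4 in their titles, and those with the same number are called a batch here. The 10 mM and 1 mM groups differ in potassium as well as nitrate, and in osmolarity if no other solute made up the difference. The moved groups differ from 0 min in fresh medium and in time of day as well as in time since the move. In neither case can these be told apart.

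Plants make proline mainly from glutamate: P5C synthase (P5CS) yields pyrroline-carboxylate (P5C), and P5C reductase (P5CR) turns it into proline. In mitochondria proline dehydrogenase (ERD5) oxidises proline back to P5C, and P5C dehydrogenase (P5CDH) returns glutamate. ERD5 is known in Arabidopsis for low transcript levels during dehydration, and for induction by proline, by low osmolarity and by sugar starvation, the last through bZIP factors that bind ACTCAT elements in its promoter. P5CS1 is the synthase gene known for induction by drought and salt, and P5CS2 is the one known for basal supply in dividing tissue.

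The 250 bases upstream of each annotated gene start were read on the gene's strand from RefSeq's TAIR10.1 assembly. They are shown for the 3 breakdown genes, since the ACTCAT element is known from the ERD5 promoter. ACTCAT, or ATGAGT where it lies on the opposite strand, is in capitals. The windows are chr3:12451557-12451806 (minus strand) for ERD5, chr5:25103313-25103562 (minus strand) for P5CDH and chr5:15500876-15501125 (plus strand) for AT5G38710.
ERD5: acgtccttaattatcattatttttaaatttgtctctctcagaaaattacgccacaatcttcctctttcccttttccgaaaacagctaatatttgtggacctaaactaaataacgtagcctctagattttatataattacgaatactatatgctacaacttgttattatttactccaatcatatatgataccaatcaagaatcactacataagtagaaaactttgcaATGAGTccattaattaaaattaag
P5CDH: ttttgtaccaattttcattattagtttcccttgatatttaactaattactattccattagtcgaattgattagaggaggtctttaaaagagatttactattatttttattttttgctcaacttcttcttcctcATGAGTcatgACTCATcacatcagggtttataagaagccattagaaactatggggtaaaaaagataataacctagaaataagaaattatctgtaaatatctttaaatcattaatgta
AT5G38710: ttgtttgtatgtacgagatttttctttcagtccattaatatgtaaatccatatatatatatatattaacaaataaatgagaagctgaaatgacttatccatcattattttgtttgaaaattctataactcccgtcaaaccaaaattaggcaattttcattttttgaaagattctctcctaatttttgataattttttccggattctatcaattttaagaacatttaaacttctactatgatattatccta

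ERD5 held 1 ACTCAT, 24 to 19 bases upstream of the start and on the opposite strand. P5CDH held it on both strands, at 117 to 112 bases upstream on the opposite strand and at 107 to 102 bases on its own strand. The windows of AT5G38710, P5CS1, P5CS2 and P5CR held none on either strand. Of 27443 such windows over the genome, 12.3% held ACTCAT. The string ACGTG, also searched on both strands, was in the P5CR window alone among the 6, at 51 to 47 bases upstream. It was in 22.9% of all windows. CACGTG, which contains ACGTG, was in none of the 6 and in 6.5% of all windows. Shorter strings such as ACGT, which occurs in the ERD5 window above, were not searched. A match in such a window describes letters, not a bound site.

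BrAD-seq libraries of poly-A RNA were used, whose reads lie at transcript 3' ends, and levels are given as CPM, read counts scaled to library size by edgeR. CPM is not scaled to length, so levels are compared between groups and not between genes. The libraries held 1376404 to 7512410 counts (median 5126926), the fewest in replicate 4 of 1 mM at 45 min. All 6 genes passed the filter on low counts, with 12086 reads in all for ERD5, 20886 for P5CR, 17125 for P5CS2, 5560 for P5CDH, 4190 for P5CS1 and 1513 for AT5G38710. AT5G38710 had 1 to 124 reads per library, so its values are the least precise. Marker lists of root hair, endodermis, xylem, phloem, root tip and root cap had reads for every gene listed, and 8 photosynthesis genes of the shoot summed to 30.5 to 59.5 CPM per library. In whole roots, fewer cells of a type and less RNA per cell cannot be told apart.

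ERD5, the proline dehydrogenase, was lowest before the move and highest 90 min after it. In the 0 min libraries it had 17.6, 20.6, 27.3 and 35.8 CPM in replicates 1 to 4. After 15 min it had 53.4, 32.05, 50.1 and 42.1 CPM on 10 mM, and 64.9, 34.9, 59.3 and 74.6 CPM on 1 mM. All 4 replicates of each were above the 0 min library of their own batch, and the ranges still overlapped that of 0 min. After 45 min the levels were 54.0, 34.7, 64.6 and 59.7 CPM on 10 mM, and 68.7, 42.2, 78.3 and 89.6 CPM on 1 mM. At 90 min they reached 75.1, 66.4, 78.3 and 112 CPM on 10 mM, and 104, 142, 159 and 177 CPM on 1 mM. All 8 libraries of 90 min lay above every 0 min library, and only the highest 10 mM library exceeded the lowest 1 mM library. By 180 min ERD5 stood at 57.9, 54.2, 61.9 and 61.9 CPM on 10 mM, and at 50.0, 58.1, 74.9 and 92.2 CPM on 1 mM. The 180 min libraries of both concentrations were thus still above all 0 min libraries.

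**Figure D1:**
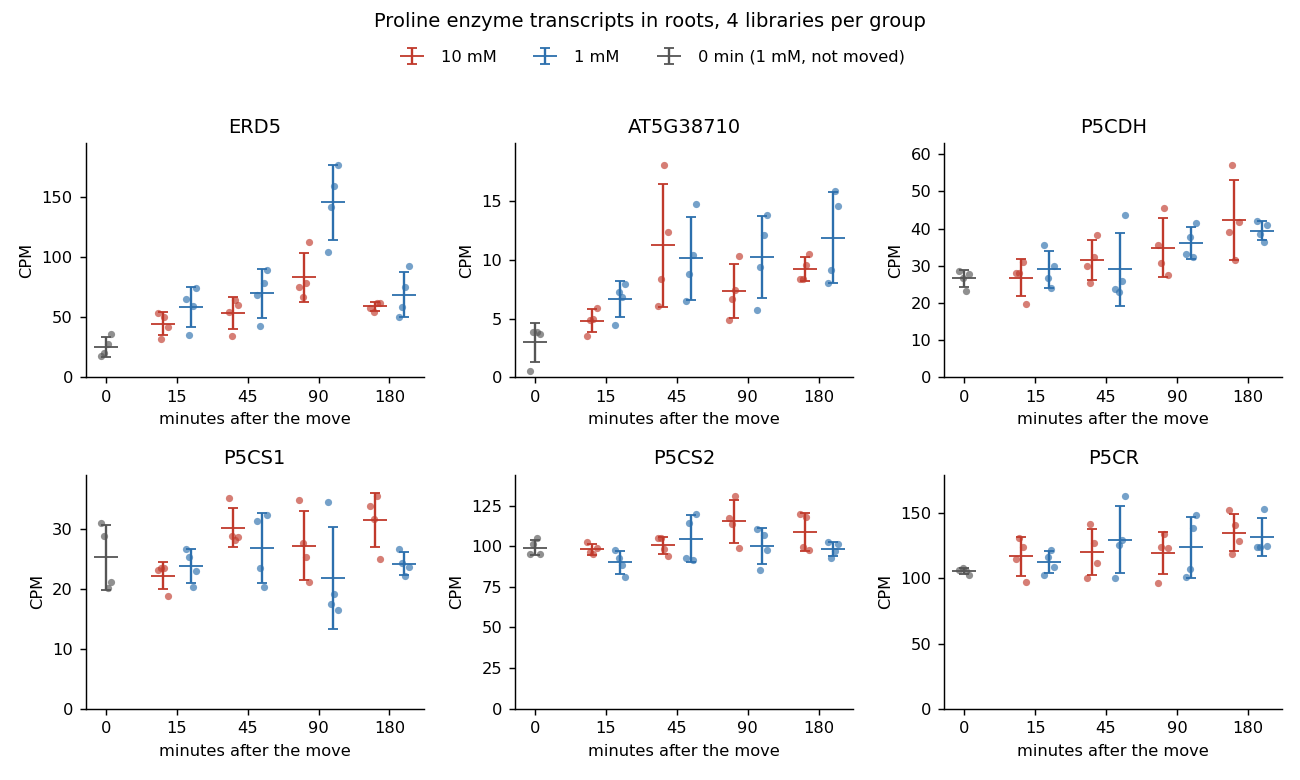
CPM (y axis) of the 6 genes against minutes after the move (x axis), with 1 point per library, the group mean as a horizontal line and the SD of 4 libraries as bars; 10 mM KNO3 is red, 1 mM blue and 0 min grey. ERD5 peaks at 90 min at 83.0 CPM on 10 mM and 145 CPM on 1 mM, against 25.3 CPM at 0 min, while the P5CS1 means lie between 21.9 and 31.6 CPM.

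In log2 terms (edgeR, ± SE, 4 libraries per group), ERD5 on 10 mM was above 0 min by 0.75 ± 0.25 at 15 min, 1.03 ± 0.24 at 45 min, 1.67 ± 0.24 at 90 min and 1.17 ± 0.24 at 180 min. On 1 mM it was above 0 min by 1.15 ± 0.24, 1.39 ± 0.25, 2.48 ± 0.24 and 1.41 ± 0.24 at the same times. The largest of these, 1 mM at 90 min, is a 5.59-fold higher level. All 8 comparisons share the 4 libraries of 0 min. Ordered by mean, the groups ran from 145 CPM (1 mM, 90 min) through 83.0 CPM (10 mM, 90 min), 69.7 CPM (1 mM, 45 min), 68.8 CPM (1 mM, 180 min), 59.0 CPM (10 mM, 180 min), 58.4 CPM (1 mM, 15 min), 53.3 CPM (10 mM, 45 min) and 44.4 CPM (10 mM, 15 min) to 25.3 CPM at 0 min, with SDs of 3.699 to 30.99 CPM. The ranges of every neighbouring pair in that order overlapped. Some marker sums also differed between 90 min and 0 min. At 90 min the 4 root hair markers summed to 268 to 298 CPM on 10 mM and 200.4 to 320 CPM on 1 mM, wholly below the 332 to 382 CPM of 0 min. The 3 phloem markers at 90 min summed to 117 to 143 CPM on 10 mM and 117 to 138 CPM on 1 mM, wholly above the 87.8 to 107 CPM of 0 min. The part of either in the ERD5 levels was not tested.

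Between the concentrations, ERD5 was lower on 10 mM than on 1 mM at every time in the mean. The log2 difference of 10 mM against 1 mM was -0.41 ± 0.24 at 15 min, -0.36 ± 0.24 at 45 min, -0.81 ± 0.23 at 90 min and -0.23 ± 0.23 at 180 min. ERD5 was lower on 10 mM in 4 of 4 batches at 15, 45 and 90 min and in 3 of 4 at 180 min, yet the 2 groups overlapped at each time. Within batches at 90 min the log2 ratio was -0.47, -1.09, -1.02 and -0.66 in batches 1 to 4, and with the batch as a block the difference was -0.83 ± 0.14. At 180 min the ratio was above 0 in batch 1 (0.21) and below it in the others (-0.10, -0.27 and -0.57). The sums of every marker list overlapped between the concentrations at 90 min. Those of the 4 endodermis markers were 414 to 603 CPM on 10 mM and 389 to 451 CPM on 1 mM. The part of the endodermis in the ERD5 levels was not tested either.

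**Figure D2:**
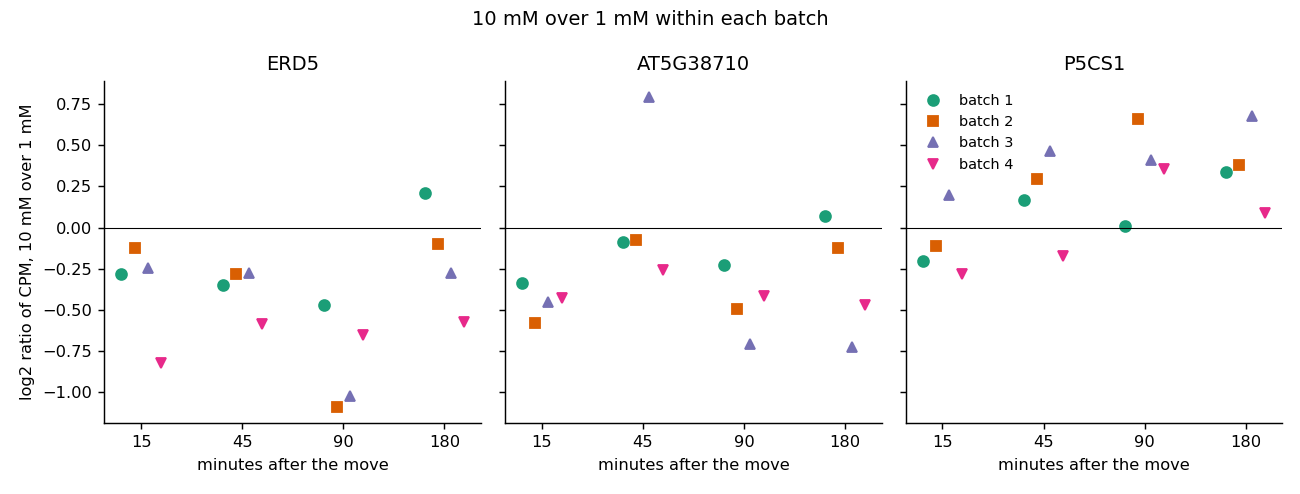
Log2 ratio of CPM, 10 mM over 1 mM, within each of the 4 batches (y axis) at the 4 times after the move (x axis), for ERD5, AT5G38710 and P5CS1; the horizontal line marks equal levels. All 4 ERD5 points lie below the line at 15, 45 and 90 min, and the 4 P5CS1 points lie at or above it at 90 and 180 min.

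AT5G38710, which RefSeq annotates as a protein of the same family as ERD5, also stood above its 0 min level, from far fewer reads. Their coding sequences, 1500 bases in ERD5 and 1431 in AT5G38710, were 76.5% identical over 1431 aligned bases. Within the last 300 bases of the transcripts, where 3' reads arise, the longest shared run was 12 bases. At 0 min AT5G38710 had 0.518, 3.88, 3.84 and 3.69 CPM in replicates 1 to 4, the first from a single read. On 10 mM it had 3.52, 4.88, 5.01 and 5.93 CPM at 15 min, and 6.11, 8.35, 18.1 and 12.4 CPM at 45 min. At 90 min on 10 mM it had 4.92, 6.69, 7.41 and 10.4 CPM, and at 180 min 8.40, 8.42, 9.57 and 10.5 CPM. The libraries of 45, 90 and 180 min on 10 mM were above all 0 min libraries, and those of 15 min overlapped them. On 1 mM the levels were 4.45, 7.30, 6.86 and 7.97 CPM at 15 min, and 6.49, 8.80, 10.4 and 14.8 CPM at 45 min. At 90 min on 1 mM they were 5.76, 9.41, 12.1 and 13.8 CPM, and at 180 min 8.00, 9.19, 15.9 and 14.6 CPM. Every moved 1 mM library was above every 0 min library.

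By edgeR's quasi-likelihood test with Benjamini-Hochberg adjustment over 18768 genes, AT5G38710 rose on 10 mM against 0 min by 1.81 ± 0.32 at 45 min (adjusted p = 9.8e-05), 1.20 ± 0.33 at 90 min (adjusted p = 0.018) and 1.47 ± 0.32 at 180 min (adjusted p = 0.00194) on the log2 scale. At 15 min on 10 mM its difference was 0.59 ± 0.35, with an edgeR adjusted p of 0.623. On 1 mM it rose by 1.06 ± 0.34 at 15 min, 1.55 ± 0.34 at 45 min, 1.69 ± 0.32 at 90 min and 1.86 ± 0.32 at 180 min, with edgeR adjusted p of 0.0481, 0.00162, 0.000257 and 6.97e-05. The first of these did not hold when any 1 of the 4 libraries of 0 min, or replicate 2, 3 or 4 of 15 min, was left out (edgeR adjusted p 0.0674 to 0.161). Without replicate 1 of 0 min, the library with a single read, the rise was 0.88 at 15 min on 1 mM (adjusted p = 0.135) and 1.02 at 90 min on 10 mM (adjusted p = 0.0532). In the same edgeR fit the calls at 45 and 180 min on 10 mM (1.64 and 1.29) and at 45, 90 and 180 min on 1 mM (1.38, 1.51 and 1.68) held. The call at 90 min on 10 mM also did not hold without replicate 4 of that group (0.96, edgeR adjusted p = 0.135).

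P5CDH, which completes the breakdown of proline to glutamate, rose on 10 mM at 180 min and, in the edgeR fit of all 36 libraries without batch blocks, passed in no other comparison. At 180 min it had 39.02, 57.2, 31.6 and 41.8 CPM on 10 mM and 42.02, 38.7, 36.3 and 40.9 CPM on 1 mM, against 28.5, 26.8, 23.3 and 27.9 CPM at 0 min. All 8 libraries at 180 min were above all 4 of 0 min. The log2 difference from 0 min was 0.68 ± 0.18 on 10 mM (edgeR adjusted p = 0.0143) and 0.58 ± 0.19 on 1 mM (edgeR adjusted p = 0.0505). Once batches were fitted as a block both passed the threshold (edgeR adjusted p of 0.00414 on 10 mM and 0.0212 on 1 mM). The 1 mM difference also passed without a block by DESeq2 (adjusted p = 0.0409) and in an edgeR fit of only the 8 libraries compared (adjusted p = 0.0160). The call on 10 mM did not hold without replicate 2 of that group (0.50, edgeR adjusted p = 0.133) or without replicate 3 of 0 min (0.62, edgeR adjusted p = 0.0736). At 15, 45 and 90 min the differences were -0.00, 0.26 and 0.40 on 10 mM and 0.11, 0.08 and 0.46 on 1 mM, and none passed. At 180 min the 3 phloem markers summed to 145 to 167 CPM on 10 mM and 139 to 155 CPM on 1 mM, against 87.8 to 107 CPM at 0 min. Their part in the P5CDH and AT5G38710 levels was not tested.

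P5CDH shares its 3' end with another gene. Its annotated span overlaps that of SRO5 (AT5G62520) on the opposite strand by 905 bases, chr5:25099003-25099907 in TAIR10.1, and both genes end inside the overlap. Whether the authors' counting used strand is not stated in the sources used here, so reads of this pair cannot be told apart with certainty. SRO5, looked up after its values were seen, averaged 31.7, 28.9, 11.6 and 6.69 CPM on 10 mM and 51.2, 28.1, 10.2 and 9.60 CPM on 1 mM at 15, 45, 90 and 180 min, against 4.60 CPM at 0 min. At 15 min its libraries held 23.1 to 37.3 CPM on 10 mM and 38.7 to 68.0 CPM on 1 mM, against 3.697 to 5.78 CPM at 0 min. SRO5 was above 0 min by 2.75 ± 0.29 on 10 mM and by 3.43 ± 0.29 on 1 mM at 15 min (log2, edgeR). As its values were seen first, these differences are a description and not a test. At that time P5CDH averaged 26.7 ± 4.95 CPM on 10 mM and 29.1 ± 5.01 CPM on 1 mM, against 26.6 ± 2.31 CPM at 0 min (SD, n = 4 each). The SRO5 mean was highest at 15 min and the P5CDH mean at 180 min, and both genes had their lowest mean at 0 min. A link between the levels of the pair was not tested. P5CS1 and P5CS2 overlap genes on the opposite strand by 91 and 32 bases, and no gene overlaps ERD5, AT5G38710 or P5CR.

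**Figure D3:**
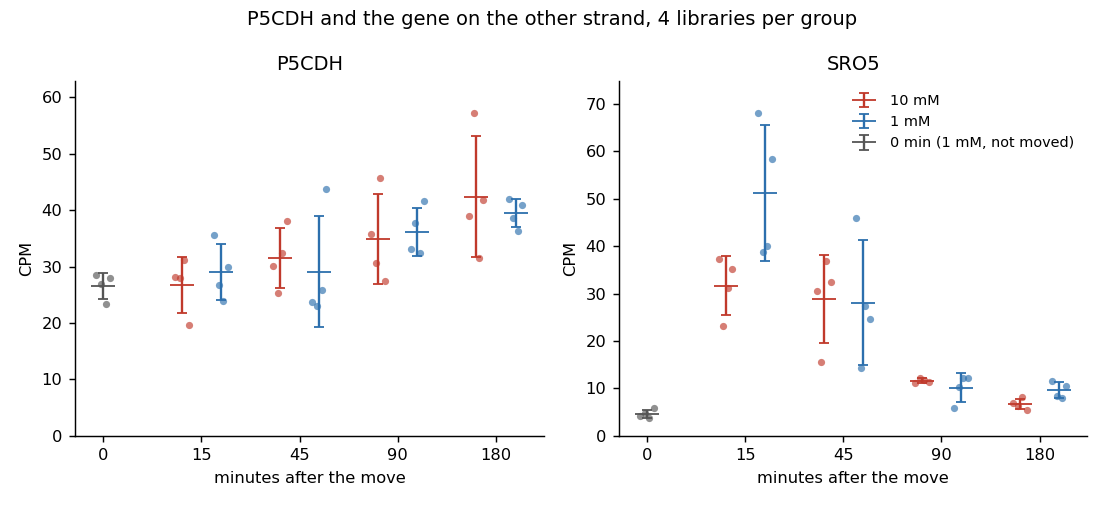
CPM (y axis) of P5CDH and of SRO5, the gene that overlaps its 3' end on the other strand, against minutes after the move (x axis); points are libraries, lines are means and bars are SD over 4 libraries. SRO5 is highest at 15 min (31.7 CPM on 10 mM, 51.2 CPM on 1 mM) and P5CDH at 180 min (42.4 CPM on 10 mM, 39.5 CPM on 1 mM).

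Without batch blocks, none of the 3 genes of synthesis passed edgeR's test against 0 min at either concentration. P5CS1, the stress-induced synthase, had 31.1, 28.9, 20.2 and 21.2 CPM at 0 min in replicates 1 to 4, and its group means elsewhere lay between 21.9 CPM (1 mM, 90 min) and 31.6 CPM (10 mM, 180 min). Its log2 differences from 0 min ran from -0.16 to 0.35 on 10 mM and from -0.24 to 0.07 on 1 mM, and none passed (lowest edgeR adjusted p 0.350 on 10 mM and 0.596 on 1 mM). P5CS2, the synthase of basal supply, had group means of 90.0 to 115 CPM, with 99.1 CPM at 0 min. Differences of P5CS2 from 0 min ran from -0.02 to 0.21 on 10 mM and from -0.15 to 0.07 on 1 mM, and none passed (lowest edgeR adjusted p 0.354 and 0.720). P5CR, the reductase of the last step, averaged 106 ± 2.25 CPM at 0 min and 135 ± 14.4 CPM on 10 mM and 131 ± 14.5 CPM on 1 mM at 180 min (SD, n = 4 each). All P5CR libraries of 180 min were above all of 0 min, with differences of 0.35 ± 0.14 on 10 mM (edgeR adjusted p = 0.149) and 0.31 ± 0.14 on 1 mM (edgeR adjusted p = 0.210). In the fit with batch blocks the 10 mM difference, 0.36 ± 0.12, passed (edgeR adjusted p = 0.0435), and the 1 mM difference did not (edgeR adjusted p = 0.0839). P5CS1 and P5CS2 coding sequences were 86.1% identical with a shared run of up to 53 bases, and within the last 300 transcript bases the longest shared run was 11 bases.

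**Figure D4:**
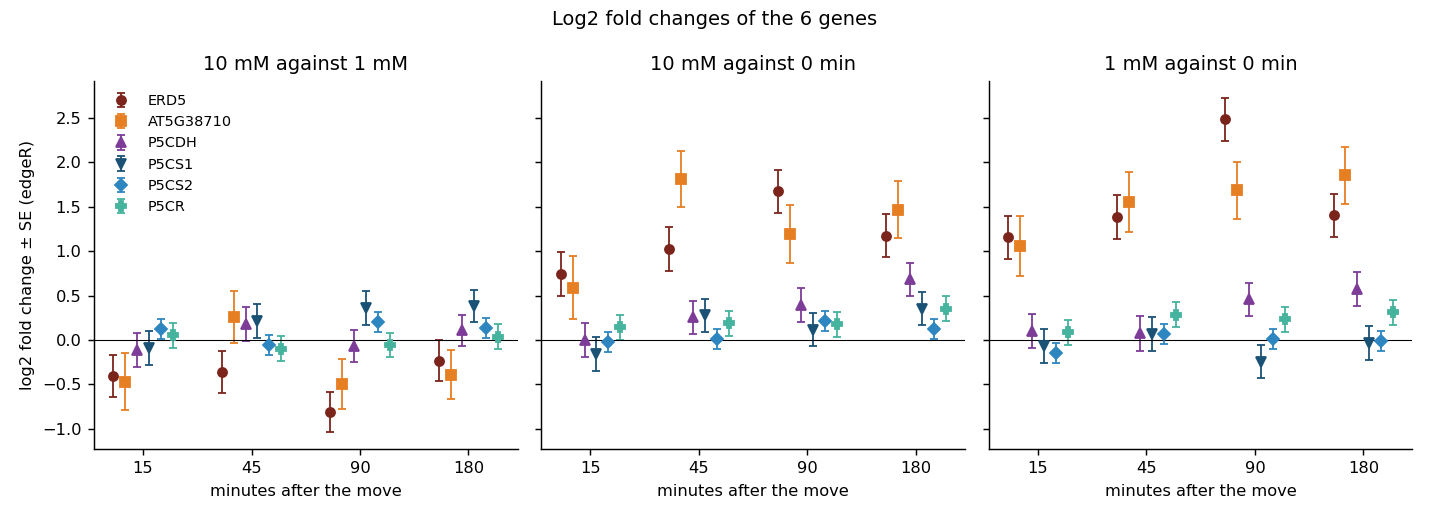
Log2 fold change ± SE from edgeR (y axis) of the 6 genes at the 4 times after the move (x axis), for 10 mM against 1 mM, 10 mM against 0 min and 1 mM against 0 min; the last pair of panels shares the 0 min libraries. The breakdown genes ERD5 (up to 2.48) and AT5G38710 (up to 1.86) lie above P5CDH (up to 0.68) and the 3 genes of synthesis (up to 0.35) in both panels against 0 min, while ERD5 lies below 0 at each time in the panel of 10 mM against 1 mM (-0.81 at 90 min).

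Counted over the 5 tested genes, 0 of 5 on 10 mM at 15 min passed against 0 min, where 5.16% of all 18768 genes did (edgeR; 0 of the 5 by DESeq2 as well, and 0 at an unadjusted p of 0.05). On 10 mM 1 of 5 passed at 45 min (5.83% of all genes), 1 of 5 at 90 min (6.38%) and 2 of 5 at 180 min (6.85%). On 1 mM 1 of 5 passed at each time, where 6.92%, 6.99%, 7.14% and 7.53% of all genes did at 15, 45, 90 and 180 min. Each of these single calls was AT5G38710, with P5CDH the other at 180 min on 10 mM. In the fit with batch blocks 0, 1, 1 and 3 of 5 passed on 10 mM at the 4 times (7.13%, 9.23%, 10.7% and 10.8% of all genes), and 1, 1, 1 and 2 of 5 on 1 mM (9.63%, 11.7%, 11.8% and 12.2%). With so few genes, these counts are a description.

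In 10 mM against 1 mM, which asks what the higher KNO3 supply added to the move itself, 0 of the 5 tested genes passed at 15, 45, 90 or 180 min by edgeR, as did 0% of all 18768 genes at each time. At an unadjusted p of 0.05, 0, 0, 0 and 1 of the 5 did, beside 486, 915, 873 and 369 of all genes. DESeq2 called 0 of the 5 at each time, with 0, 0, 1 and 1 at an unadjusted p of 0.05. With batch blocks 0, 0, 3 and 1 were under 0.05 unadjusted by edgeR, the 3 at 90 min being AT5G38710, P5CS1 and P5CS2. Their edgeR adjusted p at 90 min ran from 0.452 to 0.588. In both edgeR fits the 1 gene at 180 min was P5CS1. It had 33.9, 31.8, 35.6 and 25.1 CPM on 10 mM and 26.8, 24.4, 22.2 and 23.6 CPM on 1 mM, a log2 difference of 0.38 ± 0.18 (edgeR, unadjusted p = 0.0422, adjusted p = 1). P5CS1 was higher on 10 mM in 4 of 4 batches at both 90 min (0.36 ± 0.19) and 180 min, and the groups overlapped at each. In batch 1 at 90 min the log2 ratio was 0.01. AT5G38710 was lower on 10 mM in 4 of 4 batches at 15 min (-0.47 ± 0.32) and 90 min (-0.49 ± 0.28), and in 3 of 4 at 45 min and 180 min, where its fitted differences were 0.26 ± 0.29 and -0.39 ± 0.28. The difference at 45 min was above 0 through replicate 3 of 10 mM (18.1 CPM), without which it was -0.08. P5CDH, P5CS2 and P5CR ran from -0.11 to 0.18, from -0.06 to 0.21 and from -0.10 to 0.05. P5CS2 too was higher on 10 mM in 4 of 4 batches at 15 and 90 min. It was higher in 2 of 4 at 45 min and in 3 of 4 at 180 min. How many of all genes had 1 direction in 4 of 4 batches was not counted, so such agreement is a description. Tested over the 4 times jointly, and for a difference between times, 0 of the 5 passed by edgeR and by DESeq2, and 0 had an unadjusted p under 0.05 by edgeR, where 0% of all genes passed either edgeR test. In the fit with batch blocks 0 of the 5 passed as well, with 2 of the 5 under 0.05 unadjusted in the joint test and 0 in that of a difference between times. The joint pair was P5CS1 (edgeR adjusted p = 0.481) and AT5G38710 (edgeR adjusted p = 0.564). The shares of all genes that passed with blocks were 0.0107%, 0%, 0.048% and 0% of all genes at the 4 times, 0.0853% in the joint test and 0% in that of a difference between times. Such p-values do not show that the levels were equal.

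Of 4 lists of related genes, the low-energy list had the highest count of genes that rose for its size at 45, 90 and 180 min. These 6 genes are known to rise with ERD5 under sugar starvation or darkness, and the list was drawn up with earlier results of these data known. On 10 mM against 0 min 1, 4, 4 and 5 of 6 rose at 15, 45, 90 and 180 min by edgeR, with list medians of 0.68, 1.52, 2.17 and 2.00, where 4.35%, 4.37%, 4.4% and 4.49% of all genes rose. On 1 mM 2, 4, 5 and 5 rose, with medians of 0.64, 1.79, 2.69 and 1.87, where 5.44%, 4.72%, 4.93% and 4.82% of all genes rose. With batch blocks 2, 4, 5 and 6 of the list rose on 10 mM (5.56%, 5.92%, 6.52% and 6.57% of all genes), and 2, 4, 5 and 5 on 1 mM (6.91%, 7.23%, 7.26% and 7.12%). The median of all genes stayed between -0.03 and 0.0039 in the comparisons without blocks. DIN10, a raffinose synthase family gene named for induction in the dark, averaged 92.2 ± 6.65 CPM on 10 mM and 127 ± 7.60 CPM on 1 mM at 90 min, against 14.6 ± 2.06 CPM at 0 min (SD, n = 4 each). It rose by 2.67 ± 0.16 on 10 mM (edgeR adjusted p = 1.87e-15) and by 3.13 ± 0.16 on 1 mM (edgeR adjusted p = 1.59e-17). MIOX2, an inositol oxygenase gene, rose by 2.25 ± 0.32 on 10 mM at 90 min (edgeR adjusted p = 2.59e-06). SEN1, a senescence-associated gene also induced in the dark, averaged 2.92 ± 1.74 CPM on 1 mM at 90 min, against 0.187 ± 0.220 CPM at 0 min (SD, n = 4 each), a rise of 3.44 ± 0.82 (edgeR adjusted p = 0.00451). In 10 mM against 1 mM 0 of 6 passed by edgeR and by DESeq2 at each time, with 0, 1, 2 and 0 at an unadjusted p of 0.05, and the list median at 90 min was -0.60. In the fit with batch blocks MIOX2 alone of the list passed, at 90 min, with a difference of -0.77 ± 0.15 for 10 mM against 1 mM (edgeR adjusted p = 0.0316).

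Among the 9 bZIP factors of groups C and S1, some of which are known to bind the ERD5 promoter, 1, 3, 3 and 3 rose on 10 mM and 2, 5, 3 and 3 on 1 mM against 0 min at the 4 times, beside the shares of all genes given for the low-energy list. With batch blocks 2, 4, 3 and 3 rose on 10 mM, the added ones being BZIP1 at 15 min and BZIP11 at 45 min, and the counts on 1 mM were the same. BZIP1, a sugar-repressed S1 factor, averaged 4.97 ± 1.16 CPM on 10 mM and 6.49 ± 1.57 CPM on 1 mM at 90 min, against 0.693 ± 0.342 CPM at 0 min (SD, n = 4 each). Its rise was 2.66 ± 0.47 on 10 mM (edgeR adjusted p = 0.000109) and 3.05 ± 0.46 on 1 mM (edgeR adjusted p = 6.3e-06). BZIP63, a group C partner of the S1 factors, rose by 1.56 ± 0.19 on 10 mM (edgeR adjusted p = 1.56e-07) and 1.82 ± 0.19 on 1 mM (edgeR adjusted p = 4.81e-09) at 90 min. BZIP53, known to activate ERD5 in Arabidopsis, was up at 15 min by 0.92 ± 0.13 on 10 mM (edgeR adjusted p = 6.76e-07) and 1.05 ± 0.13 on 1 mM (edgeR adjusted p = 2.97e-08). BZIP1 was the other factor that rose on 1 mM at 15 min, by 1.72 ± 0.52 (edgeR adjusted p = 0.0316). BZIP44 fell by 0.49 ± 0.14 on 10 mM (edgeR adjusted p = 0.0245) and by 0.48 ± 0.14 on 1 mM (edgeR adjusted p = 0.0258) at 90 min, and on 10 mM at 180 min it was the 1 factor that fell. In 10 mM against 1 mM 0 of the 9 passed by edgeR and by DESeq2, and 1, 1, 1 and 0 had an unadjusted p under 0.05 at the 4 times.

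Of the 6 genes of proline and amino acid uptake, 1 rose and 1 fell against 0 min without batch blocks, each at some of the times. Over the same comparisons 5.16% to 7.53% of all genes passed in either direction, and 7.13% to 12.2% with batch blocks. PROT1, a proline transporter gene, fell by 0.71 ± 0.14 on 10 mM (edgeR adjusted p = 0.000428) and by 0.70 ± 0.14 on 1 mM (edgeR adjusted p = 0.00081) at 45 min, and it was the 1 gene of the list that fell at 90 min. AAP6, an amino acid permease gene, was the 1 that rose, on 1 mM by 0.81 ± 0.19 at 15 min (edgeR adjusted p = 0.00315) and 0.61 ± 0.19 at 45 min (edgeR adjusted p = 0.0437). At 180 min, without batch blocks, 0 of 6 passed at either concentration by edgeR or DESeq2, with 1 at an unadjusted p of 0.05 at each. With batch blocks AAP6 passed there, with differences of -0.52 ± 0.15 on 10 mM (edgeR adjusted p = 0.0149) and -0.57 ± 0.15 on 1 mM (edgeR adjusted p = 0.00675), and it also rose on 10 mM at 15 min, by 0.51 ± 0.14 (edgeR adjusted p = 0.0159). Of the 3 genes of the route from arginine and ornithine, ARGAH1 and delta-OAT were tested and neither passed by edgeR or DESeq2 in any of the 12 comparisons, with 1 at an unadjusted p of 0.05, on 1 mM at 45 min. ARGAH2 had too few reads to be tested. In 10 mM against 1 mM 0 genes of either list passed by edgeR or DESeq2, and 0 had an unadjusted p under 0.05.

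**Figure D5:**
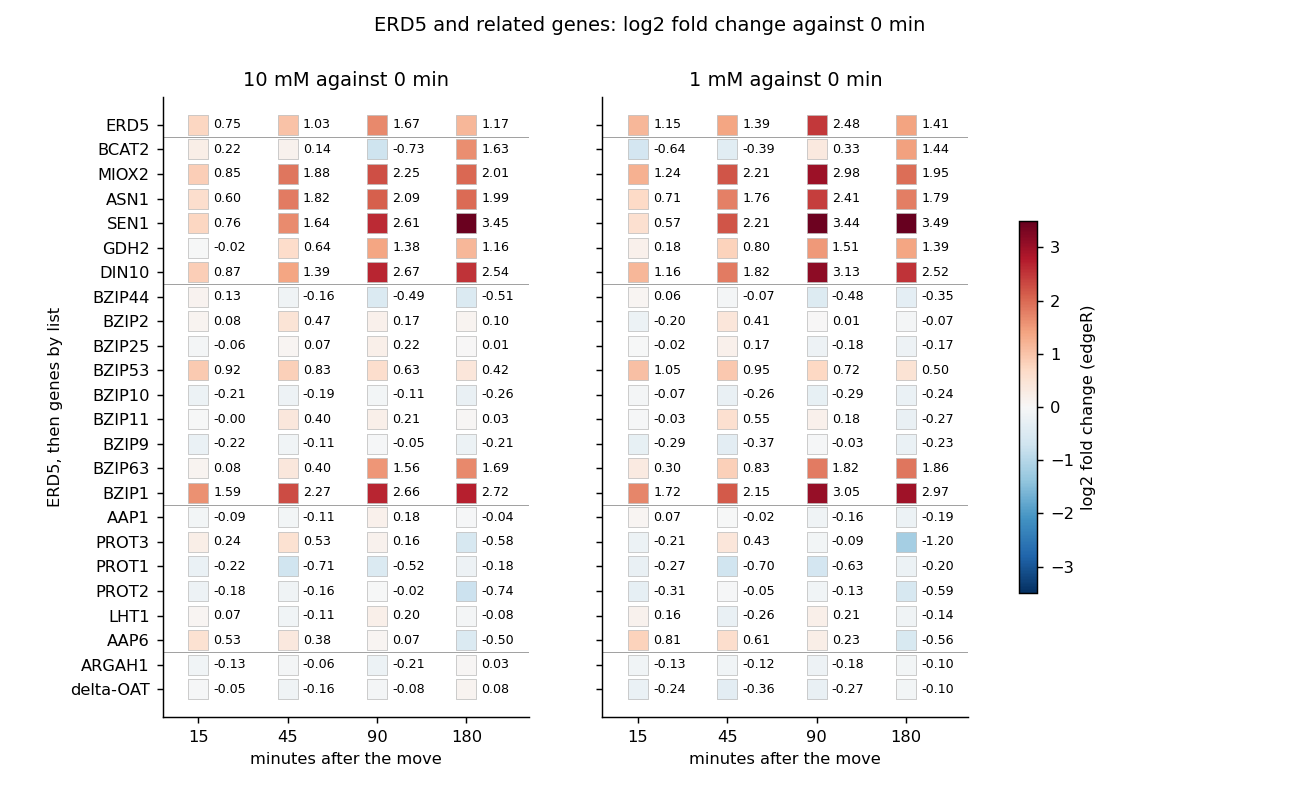
Log2 fold changes from edgeR of ERD5 and the 23 tested genes of the 4 lists (rows; lists separated by lines, in the order low-energy, bZIP, uptake, arginine and ornithine) at 15, 45, 90 and 180 min after the move (x axis), for 10 mM against 0 min and 1 mM against 0 min, which share the 0 min libraries; red is above 0 and blue below. DIN10, MIOX2 and BZIP1 are red throughout, with DIN10 at 2.67 on 10 mM and 3.13 on 1 mM at 90 min.

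The genes whose levels followed ERD5 most closely were found by Pearson correlation of log2 CPM over the 36 libraries among 17744 genes, given as a description since the libraries share groups and batches. They were AT5G22920, a RING zinc finger gene (r = 0.908), MIOX2 (r = 0.908), AT2G20670, annotated as a putative sugar phosphate exchanger (r = 0.892), AT3G15450, annotated as an aluminum-induced protein (r = 0.883), AT5G64130 (r = 0.851) and AT1G32460 (r = 0.850). The same genes had r of 0.940, 0.936, 0.985, 0.919, 0.933 and 0.946 over the 9 group means. AT3G15450 averaged 255 ± 48.9 CPM on 10 mM and 398 ± 70.3 CPM on 1 mM at 90 min, against 27.96 ± 1.80 CPM at 0 min (SD, n = 4 each). MIOX2 averaged 29.4 ± 8.49 CPM on 10 mM and 49.3 ± 10.4 CPM on 1 mM at that time, against 5.67 ± 2.70 CPM at 0 min (SD, n = 4 each). All 6 had lower means on 10 mM than on 1 mM at 90 min, with log2 differences from -0.08 ± 0.13 (AT5G64130) to -0.74 ± 0.27 (MIOX2). They were picked for likeness to ERD5 over these same libraries, so their shared direction is not independent of the ERD5 levels. The 3 genes least like ERD5 were ABCI17 (r = -0.802), CYP78A8 (r = -0.781) and AT3G27150 (r = -0.778), and AT3G27150 averaged 49.2 ± 9.58 CPM on 10 mM and 50.3 ± 4.11 CPM on 1 mM at 90 min, against 96.7 ± 19.3 CPM at 0 min (SD, n = 4 each).

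Among the 6 genes themselves, log2 CPM of ERD5 and AT5G38710 went together over the 36 libraries (r = 0.666), and within groups, after taking out the group means, r was 0.515. The synthase pair P5CS1 and P5CS2 had r of 0.472 over all libraries and 0.443 within groups. Across the pathway the signs differed by pair. ERD5 with P5CS1 had r of -0.259 over all libraries and -0.377 within groups, and AT5G38710 with P5CS1 had -0.165 and -0.583. AT5G38710 with P5CR had 0.568 and 0.435, and ERD5 with P5CR had 0.289 and 0.099. With P5CS2, ERD5 had 0.049 and -0.234, and AT5G38710 had 0.053 and -0.084. P5CDH had 0.234 and 0.195 with P5CS1, 0.227 and 0.087 with P5CS2, and 0.368 and 0.150 with P5CR. P5CDH followed ERD5 with r of 0.432 over all libraries and 0.242 within groups. The 36 libraries share groups and batches, so these correlations carry no p-value. Taking out the group means leaves differences between batches in. AT5G38710 was lowest in replicate 1 in every group, and P5CS1 was highest there in most groups. The part of the batches in the within-group correlations was not tested.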

How the data were processed

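Each of the 36 libraries came as 1 table of raw counts per gene identifier, which the authors deposited unnormalized and with 0 summary lines. FastQC, Bowtie2, SAMtools, HTSeq and build TAIR10 are named, per the submitters' processing notes; no source used here states versions, settings, annotation or strand. RefSeq's gene table for TAIR10.1 matched 32548 of 32833 identifiers and gave names, gene overlaps and upstream windows; the count tables hold no coordinates, and nothing was joined by position.

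The 6 genes, the lists and the tests were chosen with earlier results of these data known. The quasi-likelihood test of edgeR 4.0.16 (R 4.3.3) was run on the counts, two-sided, with TMM scaling and filterByExpr over the groups. All 36 libraries entered 1 model with a coefficient for each of the 9 groups and without batch, and p-values were adjusted by Benjamini-Hochberg over 18768 genes, at 0.05. Each SE was derived from the fold change and its F statistic, so it is approximate. CPM used TMM-scaled totals; correlations used log2 CPM with a prior count of 2. Of each list, up to 2 called genes per direction and comparison were named, by size of change; the genes like ERD5 are the 6 highest and 3 lowest correlations among genes averaging at least 1 log2 CPM. SRO5 was added after its values were seen. The fits were tested on simulated counts.

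Replicate numbers are those in the library titles, and libraries with the same number were taken as a batch and as paired. Their deviations from group means correlated with the 0 min library of that number at -0.008 to 0.377, above 0.1 in 26 of 32, and 28 of 32 were most like their own number. Blocking lowered the biological coefficient of variation to 12.1%, against 17.0% without. Chi-square per degree of freedom was 2.62 to 11.6 over 54 replicate pairs, so none agreed within sampling noise. How batches were grown is not stated, so p-values cover the spread of these samples, which may be technical. Alternatives were RLE scaling, no filter (25304 genes), DESeq2 1.42.0, the replicate block, fits of the 8 libraries alone, and dropping each library in turn. Proteins were not used here.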

Additional observations from a re-analysis of the deposited data

Results flagged for a closer look

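In 54 combinations of gene and group, 6 had 1 library far from the other 3 by Dixon's criterion for 4 samples (the gap to its neighbour over the range of the group), which chance alone gives in about 1 of 20 groups. AT5G38710 had 0.518 CPM in replicate 1 of 0 min, below the others at 3.69 to 3.88 CPM. Replicate 1 was its lowest library in every other group as well, so the combinations are not independent of each other. P5CDH had 43.7 CPM in replicate 4 of 1 mM at 45 min, above the others at 23.1 to 25.8 CPM, and that library had the lowest total count. P5CS1 had 18.9 CPM in replicate 4 of 10 mM at 15 min, below the others at 23.2 to 23.6 CPM. P5CS1 also had 35.2 CPM in replicate 1 of 10 mM at 45 min, above the others at 28.2 to 28.9 CPM, and 34.6 CPM in replicate 1 of 1 mM at 90 min, above the others at 16.5 to 19.1 CPM. P5CR had 153 CPM in replicate 3 of 1 mM at 180 min, above the others at 124 to 125 CPM. ERD5 and P5CS2 had no such library in these groups.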

How the results depend on the processing

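ERD5's differences kept their direction under all 156 combinations of comparison and alternative that were run. As ERD5 was chosen by its counts in these same libraries, this is a description and not a test. Of the other 5 genes' values, 727 kept direction and side of the threshold, 12 lost the threshold, 4 gained it and 37 turned direction; the cause was not tested. With the replicate block, which uses the pairing by batch, P5CDH on 1 mM (0.58) and P5CR on 10 mM (0.36) at 180 min gained the threshold, so the members called at 180 min were 2 of 5 on 1 mM (also 2 by DESeq2 and with only the 8 libraries) and 3 of 5 on 10 mM; the block changed no other call of the 5. Over all genes it called 2, 0, 9 and 0 in 10 mM against 1 mM at the 4 times and 16 jointly (DESeq2: 1 jointly), against 0 without it. Against 0 min at 45, 90 and 180 min the block called 2193, 2214 and 2287 genes on 1 mM (1311, 1340 and 1414 without) and 1733, 2008 and 2029 on 10 mM (1094, 1197 and 1286 without). With only the 8 libraries, 658 genes passed for 1 mM at 45 min, and 0 of the 5 at 15 min.

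Leaving out 1 library at a time, 0 to 1 of the 5 passed on 1 mM at 15 min, 0 to 1 on 10 mM at 90 min and 1 to 2 on 10 mM at 180 min. Directions that turned were of small differences. In 10 mM against 1 mM these ran, over the libraries left out, from -0.20 to 0.032 (P5CDH) and -0.011 to 0.13 (P5CR) at 15 min. At 45 min they ran from -0.082 to 0.41 (AT5G38710), -0.12 to 0.011 (P5CS2) and -0.19 to 0.022 (P5CR). At 90 min they ran from -0.24 to 0.045 (P5CDH) and -0.13 to 0.043 (P5CR), and at 180 min from -0.077 to 0.23 (P5CDH) and -0.026 to 0.12 (P5CR). Against 0 min on 1 mM they ran from -0.17 to 0.029 at 15 min, -0.022 to 0.20 at 45 min and -0.13 to 0.067 at 180 min (P5CS1), from -0.12 to 0.19 at 45 min (P5CDH), and from -0.034 to 0.085 at 90 min and -0.028 to 0.023 at 180 min (P5CS2). On 10 mM P5CS2 ran from -0.037 to 0.013 at 15 min and -0.00046 to 0.057 at 45 min, and P5CDH from -0.088 to 0.14 at 15 min. That P5CDH value, -0.0004, was 0.0031 with RLE scaling, 0.0094 with no filter, 0.0035 by DESeq2 and 0.0020 with the 8 libraries. Depth limits AT5G38710 most, with 1 to 124 reads per library.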
